A study of Rattus norvegicus with 40 samples.

Results

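The comparison described here set kidney T cells against circulating T cells of SS/MCW rats, the Dahl salt-sensitive rat of the MCW type, 10 weeks old, which had been on high-salt chow (HS) for 3 weeks. Its 8 libraries, 4 from kidney and 4 from blood, were chosen by their labels out of 40 in the series, and each library was made from a pool of 3 rats, 12 rats for each tissue. All 31677 gene models of the table entered, and none was selected by its value. The kidney-over-blood difference was then set beside the one in SS/MCW rats of 10 weeks on low-salt chow (LS) and the one in SS/CRL rats of 10 weeks after 3 weeks of HS, with 8 libraries each. Values for SS/MCW rats of 7 weeks on LS and SS/CRL rats of 10 weeks on LS are given beside them where a gene is followed through the series. No rat carried a transgene or drug treatment per the labels, and how the T cells were isolated is not stated in the sources used here.

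Dahl salt-sensitive rats develop hypertension and kidney damage when fed a high-salt diet, and T cells collect in their kidneys as this happens. Naive T cells circulate between blood and lymph nodes by means of the chemokine receptor CCR7 and the sphingosine-1-phosphate receptor S1PR1. T cells that have met antigen lose these molecules, gain receptors for inflamed tissue, and make cytokines or cytotoxic granules, and some settle in the tissue as resident memory cells.

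Expression is the authors' FPKM (read fragments scaled to the length of a transcript and to the mapped reads of the library), 1 value for the 4 libraries of a tissue together. Values of single libraries are not used here, so no spread among pools can be printed, and whether 1 pool carries a value cannot be seen. A gene is said to be higher, to have risen or to have fallen in kidney only where its Cuffdiff call passed, that is at a q below 0.05 in the authors' deposited table. Changes are log2 of kidney FPKM over circulating FPKM, so that 1 is a 2-fold rise. Of 23439 gene models tested, 7175 rose in kidney cells (30.6%) and 4312 fell (18.4%), 49.0% in all, against which the counts of each group of genes below are to be read. Taking normal p-values of the deposited test statistic in place of the deposited p left 2216 rises and 1282 falls. The median log2 change of tested gene models that reached 1 FPKM in either tissue was 0.20, and that of the 7344 with at least 5 FPKM in both was -0.23.

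The label of T cells was checked first on the T cell receptor complex. Cd3e (CD3 epsilon, build rn5 chr8:47915615-47926788) was at 99.0 FPKM in kidney cells and 861 FPKM in circulating cells. Cd3g, another chain of the complex, was at 164 FPKM in kidney cells and 1474 FPKM in circulating cells. Both tissues thus held CD3 transcripts, and the circulating level was several times the kidney level. Umod (uromodulin, made by the thick ascending limb, chr1:196127948-196141956) was at 5570.1 FPKM in kidney cells and 0.0103 FPKM in circulating cells. Slc34a1, the proximal tubule phosphate transporter (chr17:11856821-11872100), was at 404 FPKM in kidney cells and 0.0204 FPKM in circulating cells. The 24 proximal tubule markers summed to 4492 FPKM in kidney cells and 9.88 FPKM in circulating cells, with 8 of them listed at 0 in circulating cells. Macrophage and monocyte markers, 18 in all, summed to 1599 FPKM in kidney cells and 179 FPKM in circulating cells, where C1qa, C1qb and C1qc were listed at 0. The kidney libraries therefore held transcripts of tubule and myeloid cells beside those of T cells. Their part in the changes below was not tested, and in bulk RNA fewer cells of a type and less RNA per cell cannot be told apart.

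**Figure D1:**
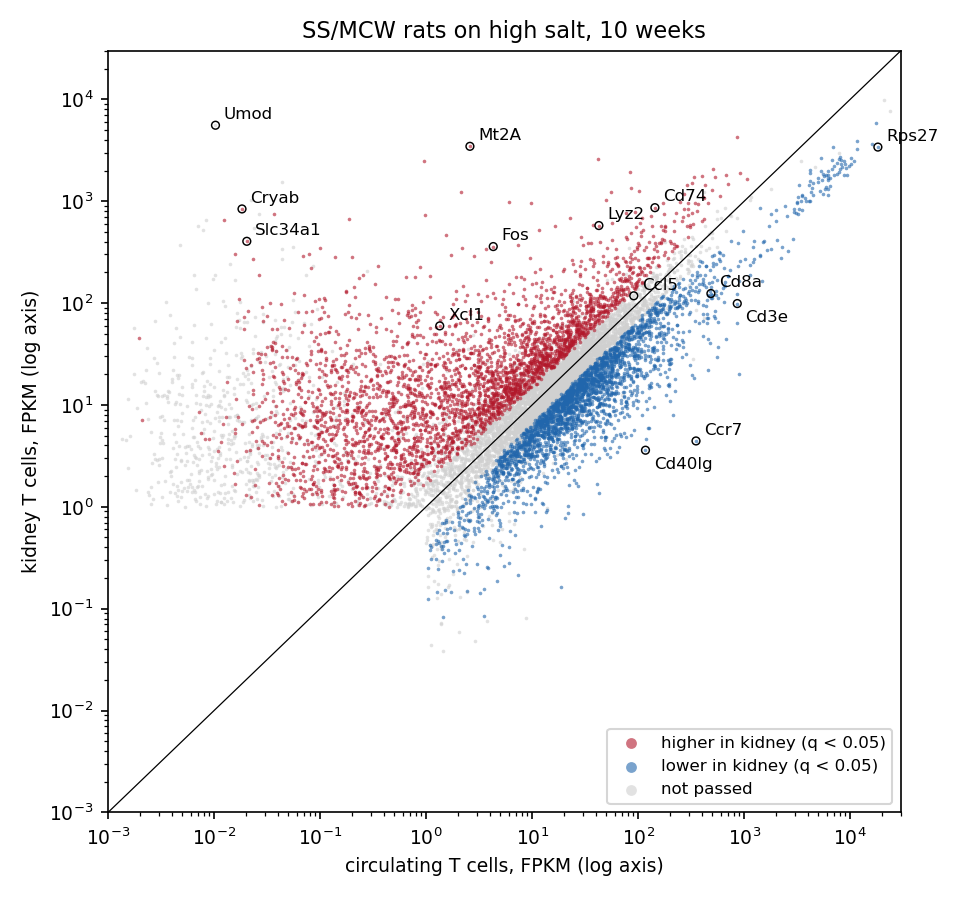
Level of each tested gene model with 1 symbol, above 0 in both tissues and at 1 FPKM or more in 1 of them, in kidney T cells (vertical axis) and circulating T cells (horizontal axis) of SS/MCW rats on high salt, in the authors' FPKM on log axes, coloured by call; the line marks equal levels. Umod, Slc34a1 and Cryab lie far above the line at circulating levels under 0.1 FPKM, while Cd3e and Ccr7 lie below it.

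The 10 largest rises among called genes with 1 symbol, 20 FPKM or more in kidney cells and a circulating value above 0 included 2 proximal tubule markers, Miox and Slc34a1, and Cryab of the tubular injury list. Miox, an inositol oxygenase of the proximal tubule, was at 648 FPKM in kidney cells and 0.0125 FPKM in circulating cells. Cryab, the small heat shock protein alpha-B crystallin, was at 839.9 FPKM in kidney cells and 0.0184 FPKM in circulating cells. The remaining rises in this set were Sema3b, Ppp1r1a, Timp3, Cdkl1, Tle2, Pbld1 and Gas6, at 45.7 to 748 FPKM in kidney cells and 0.00196 to 0.0684 FPKM in circulating cells. For all 10 the circulating level was under 0.1 FPKM, so the size of each rise rests on a very low value.

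The 10 largest falls, among genes with 20 FPKM or more in circulating cells, included the chemokine receptor Ccr7, and 9 of them are given here. Ccr7, the lymph node homing receptor (chr10:86847645-86869616), was at 4.43 FPKM in kidney cells and 351 FPKM in circulating cells, 79.3-fold lower in kidney. Cd40lg, the CD40 ligand by which helper T cells activate B cells, was at 3.60 FPKM in kidney cells and 117 FPKM in circulating cells. The costimulatory receptor Cd28 was at 4.68 FPKM in kidney cells and 117 FPKM in circulating cells. Also in this set were Ccr9, the gut homing receptor, Art2b, a surface ADP-ribosyltransferase of rat T cells, Art4, Xkrx, Mcart1l and RGD1560849. These 6 were at 0.780 to 7.98 FPKM in kidney cells and 20.5 to 214 FPKM in circulating cells.

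Genes of T cell identity fell almost without exception. Of 24 matched members of the receptor complex, its signalling chain and the coreceptors shared by T cells, 23 fell, none rose and Cd7 did not pass. Their median log2 change was -2.74, and a kidney level was a median of 15.0% of the circulating level, with members between 3.99% for Cd28 and 28.1% for Cd7. Within the CD3 complex, Cd3d stood at 14.4%, Cd3e at 11.5%, Cd3g at 11.1% and Cd247, the zeta chain, at 8.04% of the circulating level. Lck, the kinase that starts receptor signalling, was at 70.8 FPKM in kidney cells and 536 FPKM in circulating cells, 13.2% of it. The adaptor Lat was at 126 FPKM in kidney cells and 609 FPKM in circulating cells, 20.7% of it. Ptprc, the CD45 phosphatase of all white cells, was at 44.0 FPKM in kidney cells and 667 FPKM in circulating cells. At 6.59%, Ptprc was below the CD3 genes in this measure, while its partner Ptprcap was at 24.6%.

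The CD4 and CD8 lineage genes fell in 6 of 7 members, with a median log2 change of -1.97. Cd8a was at 124 FPKM in kidney cells and 486 FPKM in circulating cells, 25.6% of it. Cd8b, which forms the coreceptor with Cd8a, was at 14.4 FPKM in kidney cells and 98.0 FPKM in circulating cells, 14.7% of it. Cd4 was at 19.1 FPKM in kidney cells and 116 FPKM in circulating cells, 16.4% of it. Relative to blood, Cd8a was thus kept at a higher level than Cd4, Cd8b or the CD3 genes, a comparison that was not tested. The member that did not pass was Zbtb7b, the factor of CD4 lineage choice, at 12.1 FPKM in kidney cells and 13.0 FPKM in circulating cells. The lineage factors Gata3 and Runx3 fell less than the receptors: Gata3 to 45.4% and Runx3, of the CD8 lineage, to 39.1% of the circulating level.

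Genes of naive T cells and homing lay furthest below blood among the T cell lists, with 14 of 15 members lower and a median log2 change of -4.02. Their kidney level was a median of 6.18% of the circulating one. S1pr1, the receptor for exit from tissue into blood and lymph, was at 22.2 FPKM in kidney cells and 461 FPKM in circulating cells. Klf2, the factor that drives S1pr1, was at 63.9 FPKM in kidney cells and 449 FPKM in circulating cells. TCF7 (as spelled in the table), a factor of naive and memory precursor cells, was at 29.7 FPKM in kidney cells and 552 FPKM in circulating cells. Ccr7 at 1.26% of the circulating level was the lowest of the list, and Cxcr4, the receptor for CXCL12, at 27.6% was among the highest. Gpr183, an oxysterol receptor, did not pass at 13.6 FPKM in kidney cells and 33.6 FPKM in circulating cells.

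Genes of effector, memory and resident T cells were mixed, with 2 of 17 higher, 9 lower and 6 not passed. Their median log2 change was -1.11, and the median kidney level was 46.2% of blood. Rgs2, a regulator of G protein signalling, rose to 89.8 FPKM in kidney cells, against 23.6 FPKM in circulating cells. Among those that did not pass, Itgae, the alpha E integrin (CD103) that holds cells to epithelium, was at 18.3 FPKM in kidney cells and 12.7 FPKM in circulating cells. The T helper 1 chemokine receptor Cxcr3 was at 25.2 FPKM in kidney cells and 25.5 FPKM in circulating cells. Rgs1, found in resident T cells, was at 91.0 FPKM in kidney cells and 75.7 FPKM in circulating cells. These 3 genes were at 99.0% to 144% of the circulating level, beside CD3 genes at 8.04% to 14.4%. The others that did not pass, Id2, Klrg1 and Cxcr6, were lower, with log2 changes of -0.50, -0.17 and -1.13. Other adhesion and activation molecules fell: Cd69, which retains cells in tissue, to 27.2%, Cd44 to 27.3%, the integrin chain Itgal to 16.2% and Itga4 to 5.66% of the circulating level.

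**Figure D2:**
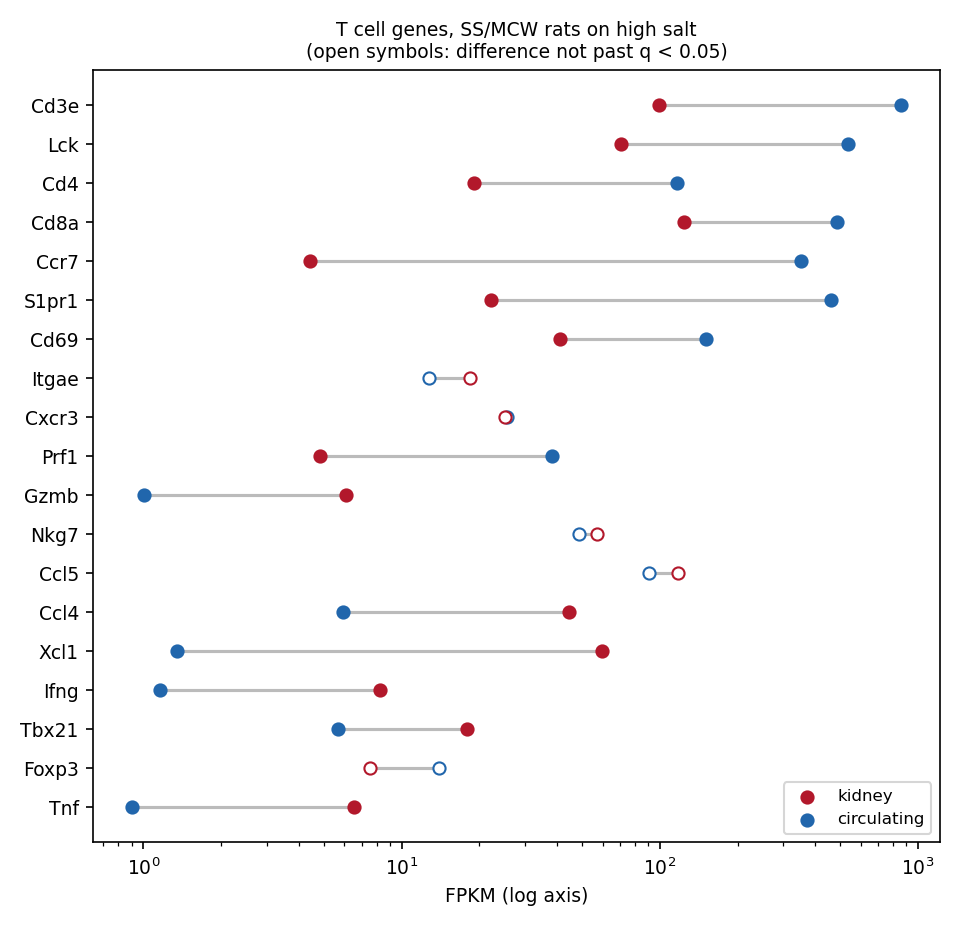
FPKM in kidney (red) and circulating (blue) T cells of SS/MCW rats on high salt for 19 T cell genes, on a log axis; filled symbols mark a Cuffdiff q under 0.05 in the authors' deposited table and open symbols a difference that did not pass. CD3, CD4, CD8 and homing genes lie to the left in kidney, whereas Xcl1, Ccl4, Gzmb, Ifng, Tbx21 and Tnf lie to the right.

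The cytotoxic list had 6 of 16 members higher in kidney, 4 lower and 6 not passed, and its median log2 change was 0.30. Xcl1, the chemokine lymphotactin (chr13:88078679-88083196), rose to 59.7 FPKM in kidney cells, against 1.35 FPKM in circulating cells, a log2 change of 5.47. Ccl4, a chemokine of inflammation, rose to 44.3 FPKM in kidney cells, against 5.93 FPKM in circulating cells. Ifng, interferon gamma, rose to 8.22 FPKM in kidney cells, against 1.16 FPKM in circulating cells. These secreted factors, which draw in or activate other immune cells, were 7.09 to 44.4 times their circulating level. Gzmb, granzyme B, rose to 6.10 FPKM in kidney cells, against 1.00 FPKM in circulating cells. Tbx21 (T-bet), the factor that drives Ifng, rose to 17.9 FPKM in kidney cells, against 5.68 FPKM in circulating cells. Cst7, an inhibitor of granule proteases, was the sixth that rose, at 12.7 FPKM in kidney cells and 6.37 FPKM in circulating cells.

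Other parts of the cytotoxic machinery fell or did not pass. Prf1, the pore-forming protein perforin, fell to 4.83 FPKM in kidney cells, against 38.4 FPKM in circulating cells. Srgn, the proteoglycan of granules, fell to 46.7 FPKM in kidney cells, against 212 FPKM in circulating cells. Ctsw and Gzmm, proteases of the same granules, fell to 43.5% and 57.9% of the circulating level. Granzyme B and perforin, which act together, thus changed in opposite directions. Ccl5 was at 118 FPKM in kidney cells and 90.9 FPKM in circulating cells and did not pass. Nkg7, a granule membrane protein, was at 57.1 FPKM in kidney cells and 48.7 FPKM in circulating cells and did not pass either.

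Regulatory and checkpoint genes fell in 4 of 14 matched members, none rose, 7 did not pass and 3 were not tested. Lag3, an inhibitory receptor, was at 49.5 FPKM in kidney cells and 49.6 FPKM in circulating cells, and its log2 change, close to 0, turned positive under another scaling. Foxp3, the factor of regulatory T cells, was at 7.51 FPKM in kidney cells and 14.0 FPKM in circulating cells and did not pass. Ctla4 fell to 16.9 FPKM in kidney cells, against 29.5 FPKM in circulating cells. Il2ra, the high-affinity interleukin 2 receptor chain, fell to 13.0 FPKM in kidney cells, against 21.4 FPKM in circulating cells. The list as a whole had a median of 59.1% of the circulating level, above the 15.0% of T cell identity genes.

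Helper cytokines and their factors were split, with 5 of 17 higher, 9 lower, 2 not passed and 1 not tested. Il17a, the cytokine of T helper 17 cells, rose to 1.52 FPKM in kidney cells and was listed at 0 in circulating cells. Tnf, tumour necrosis factor, rose to 6.54 FPKM in kidney cells, against 0.902 FPKM in circulating cells. Stat3, which acts below interleukin 6 and 23, rose to 49.1 FPKM in kidney cells, against 31.8 FPKM in circulating cells, and Bcl6, the factor of follicular helper cells, rose to 9.33 FPKM in kidney cells, against 4.40 FPKM in circulating cells. In contrast Stat4, Stat5a, Stat5b and Stat6 fell, to 14.4% to 28.5% of the circulating level. Tgfb1, at 62.4 FPKM in kidney cells and 117 FPKM in circulating cells, fell too.

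Markers of other blood and immune cells did not move as 1 group. Macrophage and monocyte markers rose in 17 of 18 members, with a median log2 change of 4.47 over the 14 members above 0 in both tissues and at 1 FPKM or more in 1 of them. Lyz2, lysozyme (chr7:60337950-60343246), rose to 577 FPKM in kidney cells, against 42.6 FPKM in circulating cells. Apoe, a lipoprotein of macrophages, rose to 523 FPKM in kidney cells, against 11.5 FPKM in circulating cells. C1qa, C1qb and C1qc, the chains of complement C1q made by tissue macrophages, were at 28.7 to 41.7 FPKM in kidney cells and listed at 0 in circulating cells. The single fall was Ctss, cathepsin S, at 61.5 FPKM in kidney cells and 115 FPKM in circulating cells. MHC class II genes, which antigen-presenting cells use, rose in 6 of 8 members. Cd74, the invariant chain, rose to 864 FPKM in kidney cells, against 144 FPKM in circulating cells. RT1-Da rose to 254 FPKM in kidney cells, against 46.7 FPKM in circulating cells, while RT1-DOb, a chain found in B cells, fell to 4.58 FPKM in kidney cells, against 17.0 FPKM in circulating cells. RT1 genes are close copies of each other, so reads may have been split among them.

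B cell and plasma cell markers fell in 7 of 13 members and none rose. Cd79b, a chain of the B cell receptor, was at 4.35 FPKM in kidney cells and 18.5 FPKM in circulating cells. The 13 members summed to 33.3 FPKM in kidney cells and 68.6 FPKM in circulating cells. Natural killer cell markers divided: Fcgr3a, Tyrobp and Fcer1g, which myeloid cells also express, rose, and Klrk1, Klrd1, Klrb1c and Il2rb fell. Tyrobp, an adaptor of activating receptors, rose to 185 FPKM in kidney cells, against 15.1 FPKM in circulating cells. Klrk1, the receptor NKG2D, fell to 28.0 FPKM in kidney cells, against 199.9 FPKM in circulating cells. Platelet markers fell in 2 of 10 members, Pf4 and Itgb3, none rose and 4 were not tested. Dendritic cell markers rose in 3 of 10 members with 6 not tested, and none exceeded 7.47 FPKM in kidney cells, the level of Cd83. Neutrophil markers rose in 2 of 9 members, Csf3r and Mmp9, at 1.97 and 0.769 FPKM in kidney cells and 0.251 and 0.288 FPKM in circulating cells, while 2 did not pass and 5 were not tested. Of those that did not pass, S100a9, a calcium-binding protein of neutrophils, was at 5.49 FPKM in kidney cells and 7.59 FPKM in circulating cells, and its partner S100a8 at 3.47 FPKM in kidney cells and 7.42 FPKM in circulating cells. The haemoglobin chain Hba1 rose to 229.7 FPKM in kidney cells, against 37.5 FPKM in circulating cells. Hba1 and its near copy Hba2 may share reads.

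**Figure D3:**
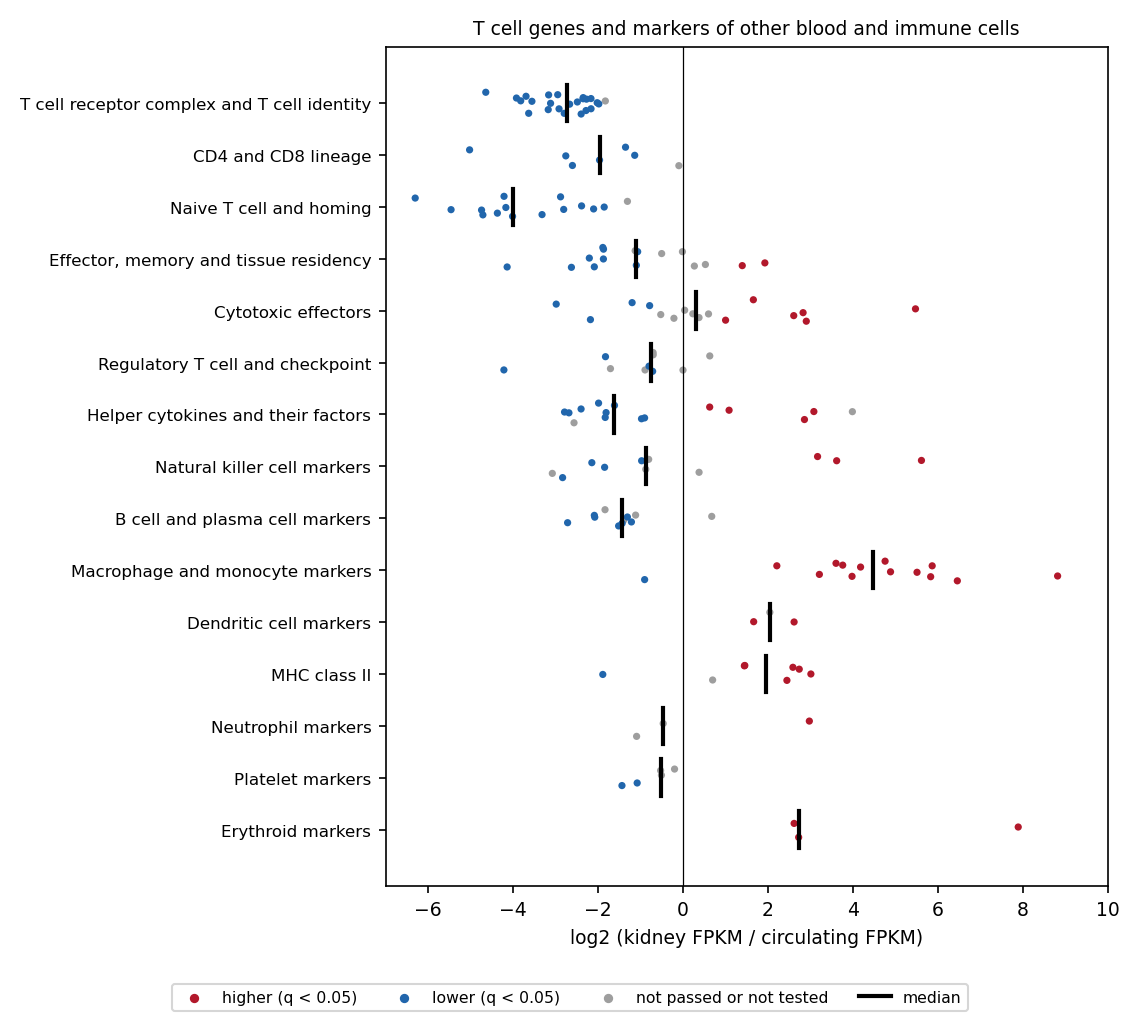
Log2 of kidney FPKM over circulating FPKM for members of the T cell lists and of markers of other blood and immune cells, for members above 0 in both tissues and at 1 FPKM or more in 1 of them; points are genes coloured by call and bars are list medians. The T cell identity and naive lists lie below 0, the cytotoxic list spans it, and macrophage markers lie above it except for Ctss.

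Among markers of kidney epithelium, rises outnumbered falls in each segment. Proximal tubule markers rose in 16 of 24 members, none fell and 8 did not pass, and 23 of 24 were at least 2-fold higher in kidney whatever their q, beside 39.3% of all gene models tested, when 1 FPKM in kidney cells was also asked for. Kap, an androgen-regulated protein of the proximal tubule, was at 1000.0 FPKM in kidney cells and listed at 0 in circulating cells. Aqp1, the water channel of the proximal tubule and thin limb, was at 1019 FPKM in kidney cells and 0.0221 FPKM in circulating cells but did not pass. The bicarbonate transporter Slc4a4 was the exception in size, at 6.94 FPKM in kidney cells and 6.34 FPKM in circulating cells.

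Thick limb and distal convoluted tubule markers rose in 7 of 14 members, 6 did not pass and TRPM6 fell. SLC12A1, the cotransporter blocked by loop diuretics, was at 575 FPKM in kidney cells and 0.00712 FPKM in circulating cells and, like Umod, did not pass. TRPM6, a magnesium channel, was at 7.31 FPKM in kidney cells and 26.3 FPKM in circulating cells. In the collecting duct, principal cell markers rose in 7 of 12 members. Aqp2, the vasopressin-regulated water channel, was at 86.3 FPKM in kidney cells and listed at 0 in circulating cells. Intercalated cell markers rose in 10 of 13, and the most abundant in kidney was Car2, carbonic anhydrase II, at 291 FPKM in kidney cells and 47.0 FPKM in circulating cells. None of the podocyte, proximal tubule, collecting duct or fibroblast markers fell.

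The share of such genes that passed differed with the circulating level. Among tested gene models with at least 20 FPKM in kidney cells, 220 of 233 listed at 0 in circulating cells were called higher (94.4%), as were 201 of 228 with over 0.1 to 1 FPKM (88.2%). Of the 215 with a value above 0 and up to 0.1 FPKM, 90 were called (41.9%). Umod, Aqp1 and SLC12A1 belong to these 215, as do Miox, Cryab and Slc34a1, which were called. What set called and uncalled genes apart at such circulating levels was not tested.

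Glomerular, vascular and stromal markers were present at lower levels. Podocyte and glomerular markers rose in 8 of 12 members with 3 not tested, and the podocyte slit protein Nphs1 was at 0.0579 FPKM in kidney cells and 0.00201 FPKM in circulating cells. Ptpro, a phosphatase of podocytes, was highest of the list at 12.7 FPKM in kidney cells and 1.01 FPKM in circulating cells. Endothelial markers rose in 7 of 15 and fell in 3. Esam, an adhesion molecule of endothelium and platelets, rose to 61.3 FPKM in kidney cells, against 0.0702 FPKM in circulating cells. The 3 that fell, Pecam1, Vwf and Ehd3, were at 3.84 to 14.9 FPKM in kidney cells and 16.5 to 74.0 FPKM in circulating cells. Fibroblast and mural markers rose in 6 of 12 members, with 4 not tested. Col1a1, Col1a2 and Col3a1 were at 0.427 to 0.556 FPKM in kidney cells and at most 0.00867 FPKM in circulating cells.

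Genes of tubular injury and repair rose in 10 of 13 members, none fell and 3 did not pass. Spp1, osteopontin, was the most abundant of all list members in kidney after the thymosin Tmsb4x, at 7579 FPKM, and was listed at 0 in circulating cells. Havcr1, the injury marker KIM-1, rose to 22.3 FPKM in kidney cells, against 0.138 FPKM in circulating cells. Cd24 rose to 738 FPKM in kidney cells, against 0.986 FPKM in circulating cells. Lcn2 (NGAL), at 190.0 FPKM in kidney cells and 0.0740 FPKM in circulating cells, did not pass. The other members that did not pass, Vim and Anxa2, are expressed by white cells too and were at 345 and 367 FPKM in kidney cells and 463 and 316 FPKM in circulating cells.

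**Figure D4:**
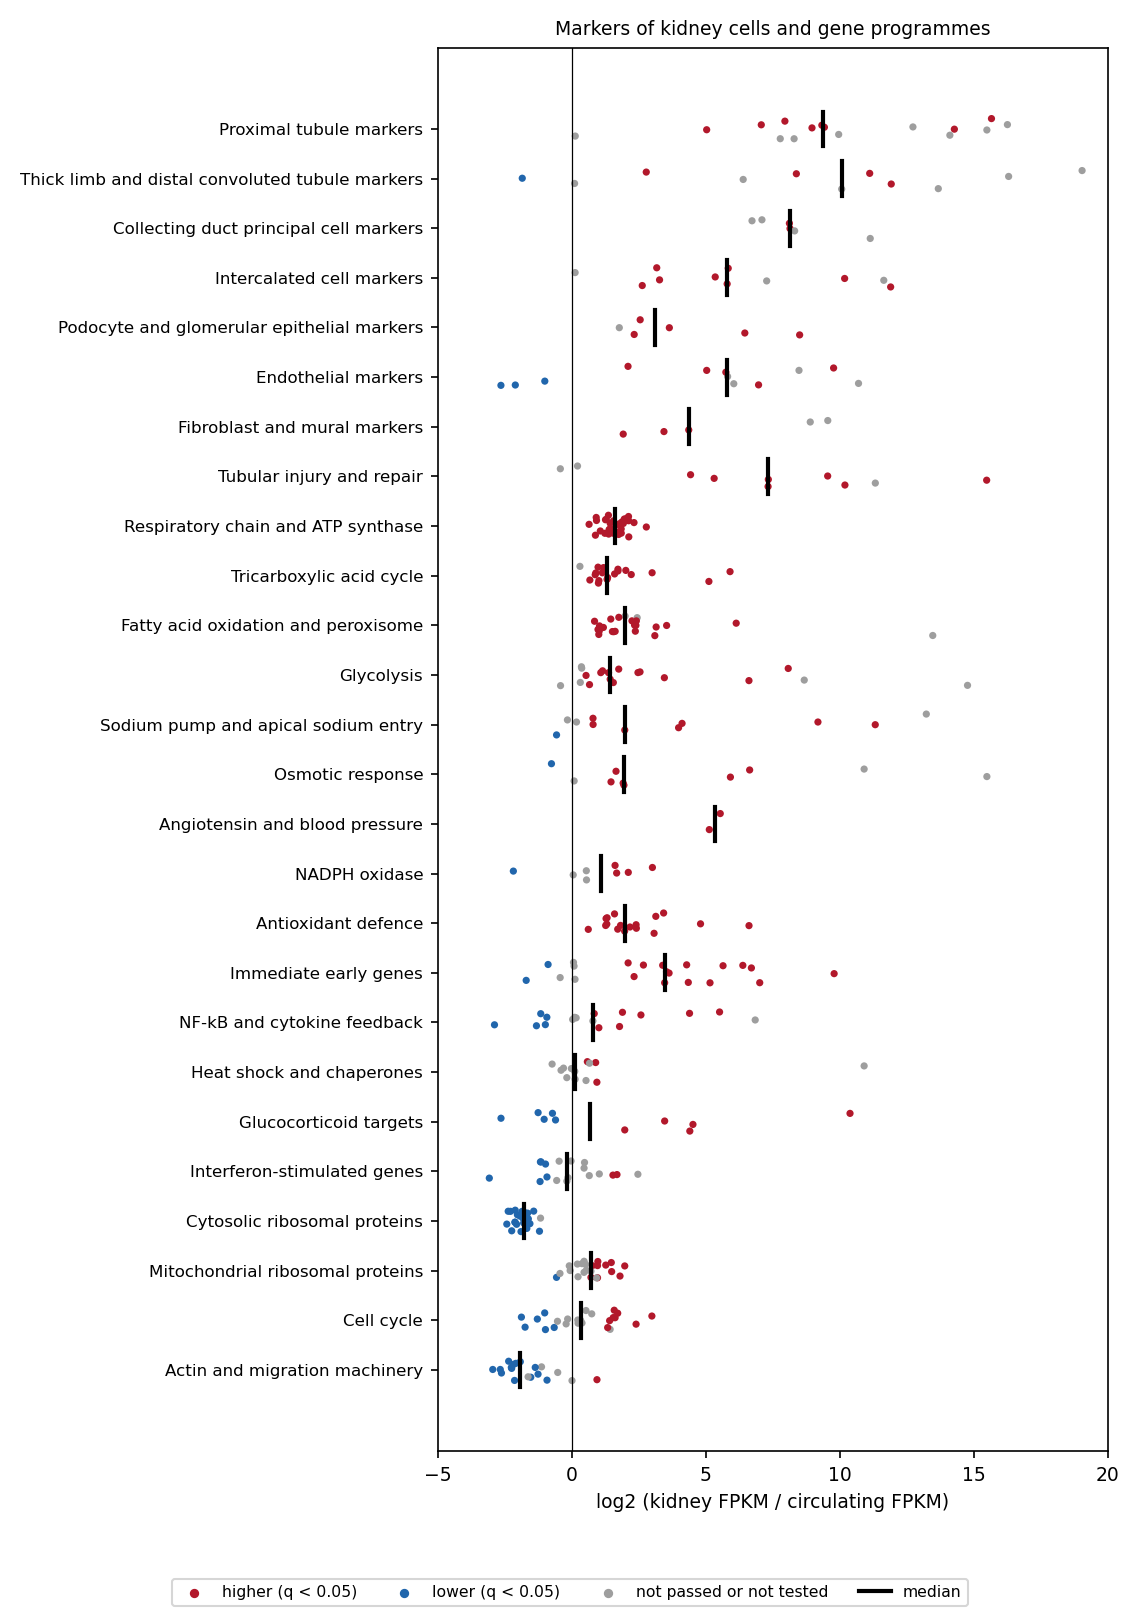
Log2 of kidney FPKM over circulating FPKM for markers of kidney cells and for gene programmes, for members above 0 in both tissues and at 1 FPKM or more in 1 of them; points are genes coloured by call and bars are list medians. Respiratory chain genes form a narrow band above 0 and cytosolic ribosomal protein genes a narrow band below it, while tubule markers spread over more than 10 log2 units.

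Most genes of energy metabolism rose in kidney cells and none fell. All 34 respiratory chain and ATP synthase genes rose, with a median log2 change of 1.60. Cox4i1, a subunit of cytochrome c oxidase, rose to 1911 FPKM in kidney cells, against 913 FPKM in circulating cells. Atp5b, the catalytic subunit of ATP synthase, rose to 1766 FPKM in kidney cells, against 404 FPKM in circulating cells. In the tricarboxylic acid cycle 18 of 19 genes rose, and Cs, citrate synthase, did not pass at 98.7 FPKM in kidney cells and 79.9 FPKM in circulating cells. Fatty acid oxidation genes rose in 20 of 23 members, with a median log2 change of 1.99. Etfb, an electron carrier of this pathway, rose to 388 FPKM in kidney cells, against 33.4 FPKM in circulating cells. Glycolysis genes rose in 13 of 21 and none fell. Among them Ldhb, the lactate dehydrogenase chain of oxidative tissue, rose to 952 FPKM in kidney cells, against 9.73 FPKM in circulating cells, whereas Ldha, the chain of activated T cells and muscle, did not pass at 241 FPKM in kidney cells and 322 FPKM in circulating cells. All 18 antioxidant genes rose as well, among them Prdx5, a mitochondrial peroxidase, at 790.1 FPKM in kidney cells and 94.0 FPKM in circulating cells. Tubule cells are rich in mitochondria, and their markers moved in the same direction. The part of tubule RNA in these rises was not tested.

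Genes of sodium transport, osmotic stress and blood pressure bear on a high-salt diet. Of 12 sodium pump and apical entry genes 8 rose and 1 fell. FXYD2 and Atp1b1, a regulator and the beta chain of the sodium pump in tubules, were at 2473 and 1232 FPKM in kidney cells and 0.965 and 2.12 FPKM in circulating cells. Atp1b3, the beta chain of white cells, did not pass at 168 FPKM in kidney cells and 149 FPKM in circulating cells. Sgk1, the salt-sensing kinase, rose to 45.9 FPKM in kidney cells, against 11.6 FPKM in circulating cells. The fall was Slc9a3r1, a scaffold of sodium transporters, at 99.7 FPKM in kidney cells and 148 FPKM in circulating cells. Osmotic response genes rose in 6 of 10 members. Nfat5, the factor of the response to high tonicity, rose to 49.2 FPKM in kidney cells, against 13.0 FPKM in circulating cells. Akr1b1, its target aldose reductase, fell to 57.9 FPKM in kidney cells, against 97.8 FPKM in circulating cells. Genes of the angiotensin system and blood pressure rose in all 11 members tested, of which 9 were listed at 0 in circulating cells. Mme (neprilysin) and Enpep (aminopeptidase A), peptidases of the proximal tubule brush border, were at 33.0 and 32.1 FPKM in kidney cells and listed at 0 in circulating cells.

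Genes of the NADPH oxidases, sources of superoxide and hydrogen peroxide, rose in 5 of 13 members, with 1 lower, 3 not passed and 4 not tested. Cybb, the catalytic subunit of the phagocyte oxidase, rose to 17.3 FPKM in kidney cells, against 4.01 FPKM in circulating cells. Ncf1 and Ncf4, cytosolic partners, rose to 8.09 to 18.5 FPKM in kidney cells, against 1.00 to 5.79 FPKM in circulating cells. Nox4, the oxidase of tubule cells, was at 6.30 FPKM in kidney cells and listed at 0 in circulating cells. Rac2, the small GTPase shared with T cells, fell to 272 FPKM in kidney cells, against 1230.2 FPKM in circulating cells. Cyba, which phagocytes and other cells express, did not pass at 196 FPKM in kidney cells and 134 FPKM in circulating cells.

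Immediate early genes, which are switched on within minutes of a stimulus and also by handling of cells, rose in 16 of 24 members, with a median log2 change of 3.47. Fos (chr6:116245317-116252608) rose to 359 FPKM in kidney cells, against 4.30 FPKM in circulating cells. Jun, its partner in AP-1, rose to 373 FPKM in kidney cells, against 30.1 FPKM in circulating cells. Atf3, a stress factor, rose to 91.8 FPKM in kidney cells, against 0.104 FPKM in circulating cells. Egr1, a zinc finger factor, rose to 114 FPKM in kidney cells, against 1.09 FPKM in circulating cells. Dusp1, a phosphatase that ends kinase signals, rose to 262 FPKM in kidney cells, against 23.7 FPKM in circulating cells, and Ier2 to 142 FPKM in kidney cells, against 33.0 FPKM in circulating cells. In the opposite direction, Btg2, an antiproliferative gene, fell to 106 FPKM in kidney cells, against 346 FPKM in circulating cells, and Myc fell to 44.9 FPKM in kidney cells, against 82.9 FPKM in circulating cells. Jund did not pass at 236 FPKM in kidney cells and 318 FPKM in circulating cells.

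Several of these genes have a cyclic AMP response element, the site of the factor CREB, close to their starts, and the 4 promoters with an exact copy of it are shown because they belong to genes that rose, fell and did not pass. Each runs 5′ to 3′ from 250 bases before to 50 bases after the start, from RefSeq on build GRCr8, a reference rat and not these rats, and capitals mark the motif TGACGTCA. Dusp1 (chr10:17184603-17184902, plus strand) and Ier2 (chr19:40399123-40399422, plus strand), which rose, have it 124 and 66 bases before the start. Btg2 (chr13:48087641-48087940, minus strand), which fell, has it 201 bases before the start, and Jund (chr16:18769722-18770021, minus strand), which did not pass, 221 bases before.
Dusp1: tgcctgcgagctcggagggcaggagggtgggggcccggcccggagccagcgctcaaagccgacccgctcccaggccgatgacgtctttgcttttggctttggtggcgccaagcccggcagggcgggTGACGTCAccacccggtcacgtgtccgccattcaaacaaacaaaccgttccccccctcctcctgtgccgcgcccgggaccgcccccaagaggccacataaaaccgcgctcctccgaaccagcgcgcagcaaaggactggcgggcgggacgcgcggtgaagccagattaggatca
Ier2: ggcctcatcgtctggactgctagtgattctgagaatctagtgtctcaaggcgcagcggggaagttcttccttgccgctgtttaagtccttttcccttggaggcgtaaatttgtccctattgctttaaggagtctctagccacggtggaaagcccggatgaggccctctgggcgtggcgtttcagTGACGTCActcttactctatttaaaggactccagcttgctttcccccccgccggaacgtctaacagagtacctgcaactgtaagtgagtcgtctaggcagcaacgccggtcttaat
Btg2: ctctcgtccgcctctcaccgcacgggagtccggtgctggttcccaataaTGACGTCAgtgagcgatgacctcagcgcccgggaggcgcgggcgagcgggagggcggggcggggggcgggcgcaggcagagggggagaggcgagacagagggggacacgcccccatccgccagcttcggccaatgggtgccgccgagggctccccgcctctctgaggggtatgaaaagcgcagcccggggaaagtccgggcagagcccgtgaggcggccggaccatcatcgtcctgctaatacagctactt
Jund: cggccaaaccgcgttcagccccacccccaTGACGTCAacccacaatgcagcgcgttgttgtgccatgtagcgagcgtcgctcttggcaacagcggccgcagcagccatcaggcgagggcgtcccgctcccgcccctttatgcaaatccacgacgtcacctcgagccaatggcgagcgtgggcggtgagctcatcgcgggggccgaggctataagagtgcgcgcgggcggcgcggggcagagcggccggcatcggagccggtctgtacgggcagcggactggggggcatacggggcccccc
The motif was searched on both strands and reads the same on either. Of 33469 RefSeq promoters of this length, 612 (1.83%) hold it, and a promoter was found for 17 of the immediate early genes. Dusp1 and Btg2, with log2 changes of 3.47 and -1.70, both hold it, and whether the motif goes with direction was not tested.

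Genes of NF-kB and cytokine feedback were split, with 8 of 19 higher, 5 lower and 5 not passed. Il1b, interleukin 1 beta, rose to 14.8 FPKM in kidney cells, against 0.704 FPKM in circulating cells. Socs3, the brake on STAT3 signalling, rose to 106 FPKM in kidney cells, against 28.7 FPKM in circulating cells, while Socs1 and Socs2 fell to 40.1% and 13.5% of the circulating level. Nfkbia, the inhibitor that NF-kB induces, did not pass at 133 FPKM in kidney cells and 130.3 FPKM in circulating cells. The further falls were Tnfaip3, Tnip1 and Nfkb1, to 44.8% to 52.5% of the circulating level. Glucocorticoid targets were divided evenly, 5 of 11 higher and 5 lower. The metallothionein Mt2A rose to 3459 FPKM in kidney cells, against 2.59 FPKM in circulating cells, and its near copy Mt1a may share reads with it. Tsc22d3 (GILZ), a target in T cells, fell to 84.3 FPKM in kidney cells, against 525 FPKM in circulating cells. Nr3c1, the glucocorticoid receptor, fell to 12.2 FPKM in kidney cells, against 20.1 FPKM in circulating cells. Heat shock genes did not pass in 10 of 14 members and 4 rose.

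Interferon-stimulated genes rose in 2 of 19 members, Oasl and Rsad2, fell in 6 and did not pass in 10. Their median log2 change was -0.16 and became positive when recentred or read from other tables, so the list has no settled direction. Mx1 fell to 15.4 FPKM in kidney cells, against 130.1 FPKM in circulating cells, and Ifi27 fell to 241 FPKM in kidney cells, against 543 FPKM in circulating cells. Isg15 did not pass at 48.9 FPKM in kidney cells and 24.0 FPKM in circulating cells.

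Cytosolic ribosomal protein genes fell in 28 of 29 members, with a median log2 change of -1.80, and Rps19 did not pass. Rps27 fell to 3400.4 FPKM in kidney cells, against 18246 FPKM in circulating cells, and Rpl30 to 1804 FPKM in kidney cells, against 8804 FPKM in circulating cells. The members lay between 18.6% and 44.6% of the circulating level. Ribosomal protein genes have many processed copies with which reads may be shared. Mitochondrial ribosomal protein genes, by contrast, rose in 10 of 23 members and 1 fell. Actin and migration genes, which white cells express strongly, fell in 14 of 19. Coro1a, an actin regulator of white cells, fell to 297 FPKM in kidney cells, against 1406 FPKM in circulating cells. Actg1 was the single rise, at 1126 FPKM in kidney cells and 587 FPKM in circulating cells.

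Cell cycle genes rose in 9 of 25 members, fell in 6 and did not pass in 10. Cdk1, the mitotic kinase, rose to 8.58 FPKM in kidney cells, against 1.08 FPKM in circulating cells. Tyms, which makes thymidylate for DNA synthesis, rose to 6.39 FPKM in kidney cells, against 1.21 FPKM in circulating cells. Top2a, Ccna2, Ccnb2, Bub1, Bub1b, Birc5 and Rrm2, genes of S phase and mitosis, rose too, at 0.591 to 5.10 FPKM in kidney cells and 0.132 to 2.02 FPKM in circulating cells. The falls were CCND2 and the replication licensing genes Mcm2, Mcm3, Mcm4, Mcm6 and Mcm7, these 5 to 29.9% to 63.5% of the circulating level. Mcm5, of the same complex, did not pass at 10.3 FPKM in kidney cells and 11.9 FPKM in circulating cells, and neither did the mitotic genes Ccnb1, Aurka, Aurkb and Plk1, at 117% to 144% of the circulating level. Mki67, the proliferation antigen, did not pass at 3.27 FPKM in kidney cells and 1.21 FPKM in circulating cells.

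Gene models without a symbol made up 10743 of those tested, of which 2961 rose and 1493 fell. At the other end of the scale, 1272 tested gene models had at least 50 FPKM in both tissues, and 258 of them differed by no more than 1.2-fold, with none called.

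Whether the kidney-over-blood difference of SS/MCW rats on HS departed from that of the other rats was tested on the difference of the log2 changes, as a z test with Benjamini-Hochberg adjustment over all gene models. It rests on the authors' deposited Cuffdiff statistics, taken as normal, since no values of single pools entered it. Against SS/MCW rats on LS, 2 of 16488 gene models passed (0.0121%), neither with a symbol, and 38 (0.230%) had an unadjusted p under 0.05. Against SS/CRL rats on HS, 6 of 16766 passed (0.0358%), of which 4 carry a symbol, and 327 (1.95%) had an unadjusted p under 0.05. Both shares lie below the 0.05 that such a p would reach with no true difference, so the test was strict for most gene models. A difference that did not pass is therefore not shown to be absent. The test was not strict where a standard error was very small. The 2 that passed against SS/MCW LS had standard errors of 0.022 and 0.052. The standard deviation of z was 1.24 in that comparison and 0.65 against SS/CRL HS. The median difference over all gene models was 0.01 against SS/MCW LS and 0.10 against SS/CRL HS.

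Lyz2, Fcer1g and Il2rb, of the 4 with a symbol, were higher in kidney relative to blood in SS/MCW HS rats than in SS/CRL HS rats. In SS/MCW LS rats of 10 weeks their log2 changes lay between those of these groups, at 2.45, 2.28 and -1.93. None of them passed against SS/MCW LS rats. Lyz2 had a log2 change of 3.76 in SS/MCW HS rats and 0.77 in SS/CRL HS rats, a difference of 2.99 ± 0.67 (SE), with an adjusted p of 0.0332 in the z test. Its kidney level was 577 FPKM in SS/MCW HS rats and 99.2 FPKM in SS/CRL HS rats, and its circulating level 42.6 FPKM in SS/MCW HS rats and 58.1 FPKM in SS/CRL HS rats. Fcer1g (chr13:94228760-94233569), the common chain of Fc receptors in myeloid and natural killer cells, had log2 changes of 3.17 in SS/MCW HS rats and 0.04 in SS/CRL HS rats, a difference of 3.13 ± 0.71 (SE), with an adjusted p of 0.0332. Il2rb (chr7:119683627-119705412), the shared receptor chain for interleukins 2 and 15, fell in both, with log2 changes of -0.98 in SS/MCW HS rats and -4.05 in SS/CRL HS rats, a difference of 3.07 ± 0.70 (SE), with an adjusted p of 0.0332. Lyz2, Fcer1g and Il2rb no longer passed when the differences were recentred on their median (adjusted p of 0.0617 for each) or when standard errors came from the deposited p (adjusted p of 0.0799 to 0.537). With those standard errors 18 gene models passed, 17 of them higher in SS/MCW HS rats, among them Tbx21, Cst7, Cybb, Ncf1 and RT1-Ba. Tbx21 differed by 3.02 and Cybb by 2.60 (log2). No deposited p was below 5e-05, so these standard errors cannot be small beside the log2 change. A gene model whose changes had the same sign in both groups could hardly pass, and all 18 had opposite signs. The changes of Lyz2, Fcer1g and Il2rb had the same sign in both groups, so this setting cannot decide on them.

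**Figure D5:**
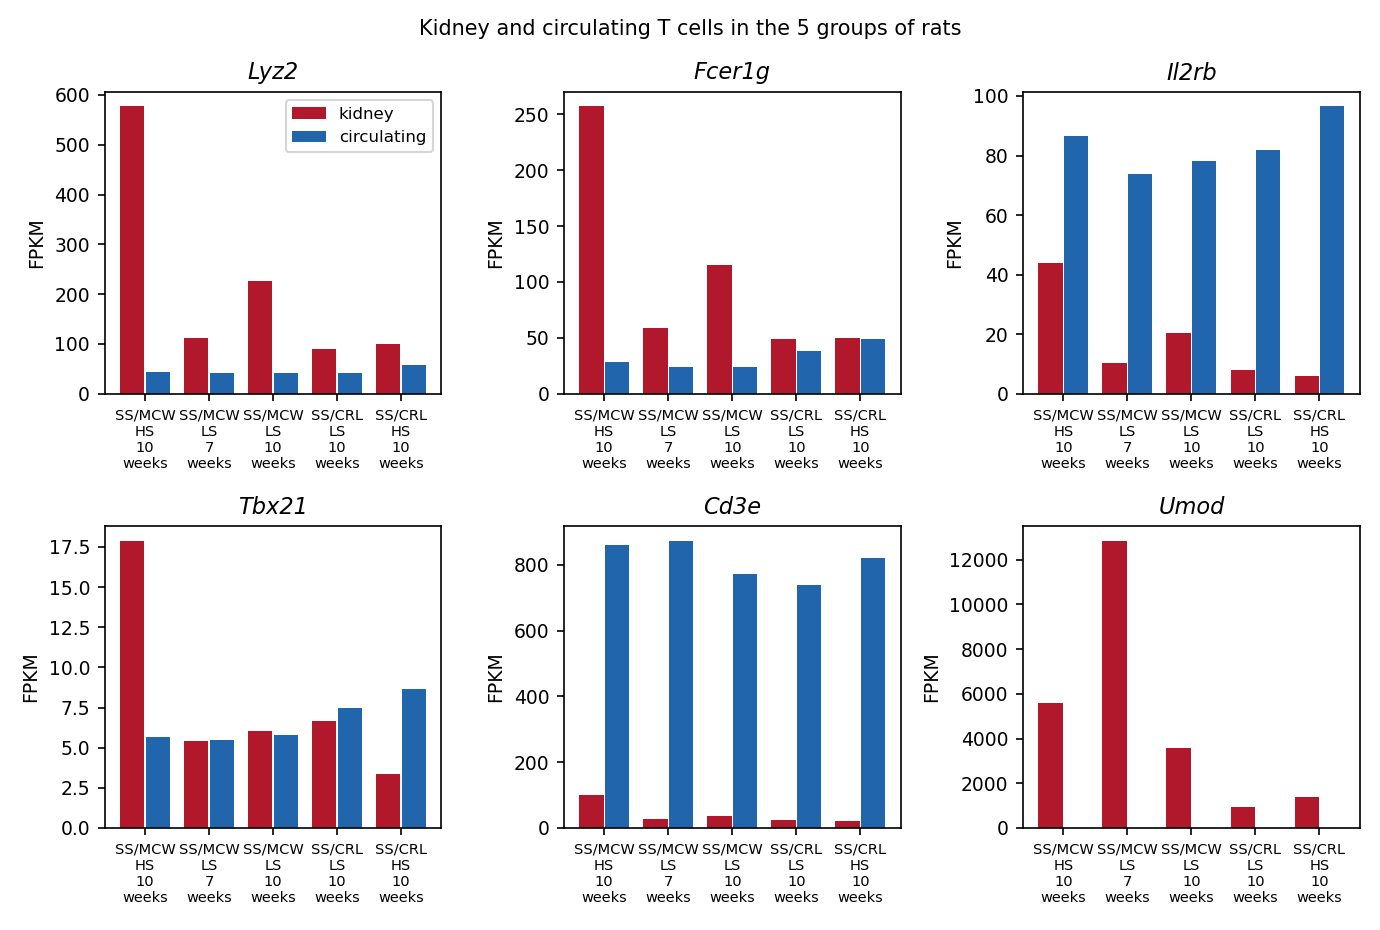
FPKM of 6 genes in kidney (red) and circulating (blue) T cells of the 5 groups of rats, 1 value of the authors for each tissue and group, with no error available. Among the kidney values, those of Lyz2, Fcer1g, Il2rb, Tbx21 and Cd3e are highest in SS/MCW HS rats (the leftmost pair), with Il2rb and Cd3e below every circulating value, and that of Umod is highest in SS/MCW LS rats at 7 weeks.

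The gene groups are given side by side with no p, since no list was tested. T cell identity genes had a median kidney level of 15.0% of the circulating level in SS/MCW HS rats, 6.80% in SS/MCW LS rats of 10 weeks and 3.08% in SS/CRL HS rats. The log2 change was less negative in SS/MCW HS rats for all 24 members against either comparison group, by a median of 1.18 against SS/MCW LS and 1.93 against SS/CRL HS, and no member passed. Cd3e was at 99.0 FPKM in kidney cells and 861 FPKM in circulating cells of SS/MCW HS rats. The corresponding levels were 36.7 FPKM in kidney cells and 772 FPKM in circulating cells of SS/MCW LS rats, and 20.5 FPKM in kidney cells and 822 FPKM in circulating cells of SS/CRL HS rats. Macrophage markers differed by a median of 1.21 from SS/MCW LS (12 of 13 members above 0) and of 2.43 from SS/CRL HS (12 of 12, of which Lyz2 passed). For cytotoxic genes the median difference was 1.00 from SS/MCW LS (14 of 15 above 0) and 2.30 from SS/CRL HS (16 of 16), and none passed. Natural killer cell markers differed by 0.99 from SS/MCW LS (10 of 10 above 0) and by 2.90 from SS/CRL HS (11 of 11, of which Fcer1g and Il2rb passed). T cell identity, cytotoxic, natural killer and macrophage genes nearly all stood higher relative to blood in SS/MCW HS rats. The median differences over all gene models were 0.01 and 0.10. The shift was not particular to these lists. B cell markers differed by 0.81 from SS/MCW LS (8 of 11 above 0) and 2.23 from SS/CRL HS (11 of 11). MHC class II genes differed by 0.77 (7 of 7) and 2.26 (8 of 8), and actin and migration genes by 0.32 (13 of 19) and 1.32 (16 of 19). Platelet markers went the other way, at -1.09 (1 of 5 above 0) and -0.20 (2 of 5). No member of these further lists passed. The part of each cell type in these differences was not tested.

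Ifng and Xcl1 had their highest kidney level in SS/MCW HS rats, and their differences did not pass. Ifng was at 8.22 FPKM in kidney cells and 1.16 FPKM in circulating cells of SS/MCW HS rats, 0.414 and 0.950 FPKM in those of SS/MCW LS rats, and 2.76 and 0.833 FPKM in those of SS/CRL HS rats. Xcl1 was at 59.7 FPKM in kidney cells and 1.35 FPKM in circulating cells of SS/MCW HS rats, 20.8 and 0.939 FPKM in those of SS/MCW LS rats, and 15.4 and 2.81 FPKM in those of SS/CRL HS rats. Tbx21 was at 17.9 FPKM in kidney cells and 5.68 FPKM in circulating cells of SS/MCW HS rats, 6.01 and 5.79 FPKM in those of SS/MCW LS rats, and 3.35 and 8.65 FPKM in those of SS/CRL HS rats. Tubule markers were given the same comparison, and none passed. Proximal tubule markers differed by a median of -0.04 from SS/MCW LS (7 of 15 above 0) and of 0.98 from SS/CRL HS (10 of 15). Thick limb and distal convoluted tubule markers differed by 0.47 from SS/MCW LS (6 of 9 above 0) and 1.27 from SS/CRL HS (10 of 11). Collecting duct principal cell markers differed by 0.44 from SS/MCW LS (5 of 6) and 0.10 from SS/CRL HS (3 of 6), and intercalated cell markers by -0.30 from SS/MCW LS (5 of 10) and 0.53 from SS/CRL HS (7 of 10). Respiratory chain genes lay lower in SS/MCW HS rats, with median differences of -0.42 from SS/MCW LS (1 of 34 above 0) and -0.32 from SS/CRL HS (3 of 34), and none passed.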

How the data were processed

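RNA of kidney and circulating T cells was extracted with TRIzol and made into TruSeq libraries, per the labels' protocols. The submitters' processing notes name build rn5 and list Trim Galore 0.2.5, cutadapt, TopHat2 2.1.1, TopHat, Cuffdiff and Cufflinks 2.2.1, without parameters. The deposited values are the authors' FPKM, 1 per group and tissue over 4 pooled-rat libraries, and the table gives the Cuffdiff test statistic (a score) with its q-value and p-value, per the file headers. Depth per library is unknown. Of the 15 tables, 9 were read. The deposited log2 fold change column held spreadsheet errors, so log2 of kidney FPKM over circulating FPKM was computed, without a pseudocount, and no fold is given against a tissue listed at 0.

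A gene model was called at q under 0.05 with status OK. The smallest deposited p was 5e-05. Because that p comes from the authors' fit, nothing was refitted here. Differences of effects used a z test with standard errors of log2 change over test statistic, normal two-sided p-values and Benjamini-Hochberg adjustment. It was run on data simulated with these same standard errors, which cannot show whether the errors suit the real data. The 41 gene lists held 715 entries, of which 659 were matched by symbol or RefSeq synonym. List medians use members above 0 in both tissues that reached 1 FPKM in either. Members and lists were chosen with earlier results of these data known. Genes named were the 10 largest rises and falls, up to 5 of the most abundant members of each list with the exceptions to its direction, a fixed set of markers, and the passing differences with a symbol. Gene models with several symbols, such as that of Hbb, were not named, and a few genes chosen this way are left out of the text. Other list members named in the text were chosen after their values were seen. Alternatives were a q under 0.01, a 1 FPKM minimum, a normal p of the test statistic, leaving out gene models at 0, recentring, a pseudocount of 1, FPKM from the tables within each tissue, standard errors from the deposited p, and a 5 FPKM minimum. A 2-fold rule without q was added after seeing the data. Computing used scipy 1.17.1, numpy 2.4.6 and pandas 2.3.3 under Python 3.11.15, and figures matplotlib 3.10.9. Positions are those of the gene models in build rn5, whose ends can reach beyond the annotated gene.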

Additional observations from a re-analysis of the deposited data

Results flagged for a closer look

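The kidney-over-circulating log2 change of SS/MCW HS rats differed from that of SS/CRL HS rats by 3.13 for Fcer1g, 2.99 for Lyz2 and 3.07 for Il2rb, in the z test of the difference itself. Each was higher in SS/MCW HS rats, and the values of the groups are in the report. None of the differences of these genes from SS/MCW LS rats passed. Gene models without a symbol also passed. ENSRNOG00000045803 had a log2 change of 0.51 in SS/MCW HS rats and -0.91 in SS/CRL HS rats, a difference of 1.42, and MSTRG.6868 had 5.56 in SS/MCW HS rats and 9.24 in SS/CRL HS rats, a difference of -3.68. Against SS/MCW LS rats of 10 weeks, ENSRNOG00000041370 had 1.67 in SS/MCW HS rats and -0.52 in SS/MCW LS rats, a difference of 2.19. ENSRNOG00000047297 had -1.73 in SS/MCW HS rats and 1.45 in SS/MCW LS rats, a difference of -3.18. For the last of these the authors' deposited table gave a test statistic of -118 beside a p of 0.306 in SS/MCW HS rats, and for ENSRNOG00000041370 a statistic of 63.6 beside a p of 0.283. None of these 4 gene models without a symbol passed when the standard errors came from the deposited p.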

How the results depend on the processing

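No paired analysis was possible because the tables hold 1 value per group and none per library, and for the same reason no replicate could be left out in turn. The 7175 rises and 4312 falls became 2216 and 1282 with normal p-values of the deposited statistic, and the rises became 4225 without gene models listed at 0. Both counts stayed within 1.5 times under a q under 0.01, a 1 FPKM minimum and the added 2-fold rule. Recentring was applied to the direction of called gene models only and left 7175 and 4312. The q was not computed again, so the total could not change there. Values of SS/MCW HS kidney cells in the tables within a tissue were higher by a median of 0.15 to 0.19 (log2) and those of circulating cells differed by -0.15 to -0.14. Interferon-stimulated genes changed the sign of their median, to 0.072 recentred and 0.14 from those tables, and neutrophil markers did, to 0.50, when all members above 0 in both were used. Single genes that changed sign, none of them called, were Lag3 (0.23 recentred, 0.29 from those tables), Itga2b (0.034 and 0.10) and Pcna (0.082 and 0.15). A pseudocount of 1 FPKM moved 13 of 41 list medians by over 1.5-fold and reversed none. The 2 differences from SS/MCW LS rats became 1 and the 6 from SS/CRL HS rats became 18 with standard errors from the deposited p, and 3 when recentred. With no deposited p below 5e-05, those standard errors could hardly let a gene model pass whose changes had the same sign in both groups. What else moved these numbers was not tested. A minimum of 5 FPKM left both numbers within 1.5 times.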
